A study of Homo sapiens with 2 samples.

Results

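Chromosomes 4, 13 and 18 are the human autosomes with the fewest protein-coding genes per Mb, and this account describes where the histone methyltransferase KMT2D (also called MLL4) was mapped on them in lymphoma cells. The data were 1 list of peaks from chromatin immunoprecipitation with sequencing (ChIP-seq) of KMT2D. All peaks that the list places on these 3 chromosomes were taken, which gave 1659 of 24824 listed peaks, or 6.68%. Chromosome 4 held 853 of them, chromosome 13 held 447 and chromosome 18 held 359.

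The cells were OCI-LY7, an established line of diffuse large B-cell lymphoma of the germinal centre B-cell-like type, labelled wild type. They were fixed with 1% formaldehyde for 10 min. There was 1 ChIP library, made with an antibody to the N-terminus of KMT2D, and 1 input library of the same cells made with no antibody. Separate values of the input were not analysed here. The line derives from a tumour and is 1 model, so nothing below says how other lymphomas or normal B cells would look. With 1 library no replicate spread exists and no p-value was computed. Intervals are at 95% and cover counting error over peaks only. Neighbouring peaks are not independent, so the intervals are too narrow, and no difference below was tested between libraries. The sequencing depth is unknown.

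KMT2D methylates lysine 4 of histone H3, chiefly at enhancers, the stretches of DNA that raise transcription of genes that can lie far away. Its gene is often inactivated in B-cell lymphoma. Gene-poor chromosomes combine gene-rich bands with long stretches of few genes, which are often late-replicating and contact the nuclear edge. They still carry genes that B cells depend on, such as NFKB1, a subunit of the NF-kB transcription factor, and BANK1, a B-cell receptor adaptor, on chromosome 4. Chromosome 13 carries RB1, a brake on the cell cycle, and MIR17HG, the host gene of a microRNA cluster amplified in lymphoma. Chromosome 18 carries BCL2, which protects cells from death, and TCF4, an E-protein transcription factor. Peaks were not assigned to these or other genes, because the positions are on hg19 and no annotation of that build was used here.

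The label of the 3 chromosomes as gene-poor held in a gene table. Chromosome 18 had 270 protein-coding genes, or 3.48 per Mb, chromosome 13 had 338, or 3.56 per Mb, and chromosome 4 had 770, or 4.03 per Mb. They were the lowest of the 22 autosomes, and the other 19 ran from 4.89 on chromosome 8 to 24.7 on chromosome 19. Lengths here and below are spans, measured between the outermost peaks of a chromosome, and only the number of genes per chromosome was taken from the table. The same 3 had the lowest peak densities of the autosomes. These were 4.47 peaks per Mb on chromosome 4 (exact Poisson interval 4.17 to 4.78), 4.62 on chromosome 18 (4.15 to 5.12) and 4.71 on chromosome 13 (4.28 to 5.17), against 6.30 to 26.7 on the other 19. Chromosome X, which was not ranked, had 4.10 (3.79 to 4.44).

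Counted per gene over all listed peaks, chromosomes 13 and 18 were not poor in KMT2D peaks. Chromosome 18 had 1.33 peaks per protein-coding gene and chromosome 13 had 1.32, close to the median of 1.32 over the other 19 autosomes, whose range was 0.997 on chromosome 11 to 1.58 on chromosome 22. Chromosome 4 had 1.11 peaks per gene, the third lowest of the 22. These counts rest on unlike minimum heights, in the units of the deposited list. The lowest listed height was 15 on chromosomes 4 and 18 and 17 on chromosome 13, against 16 to 26 on the other 19. A minimum of 26, the lowest listed on chromosome 19, left 537, 296 and 203 peaks on chromosomes 4, 13 and 18. Chromosome 19 kept all 1570. Peaks per gene at a common minimum height were not computed. The 3 chromosomes together held 6.90% of the protein-coding genes and 6.68% of the peaks. Across the 22 autosomes the rank correlation (Spearman) of peaks per Mb with genes per Mb was 0.97, and Pearson's was also 0.97. Both measures share the span as denominator, and chromosomes are not replicates.

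**Figure D1:**
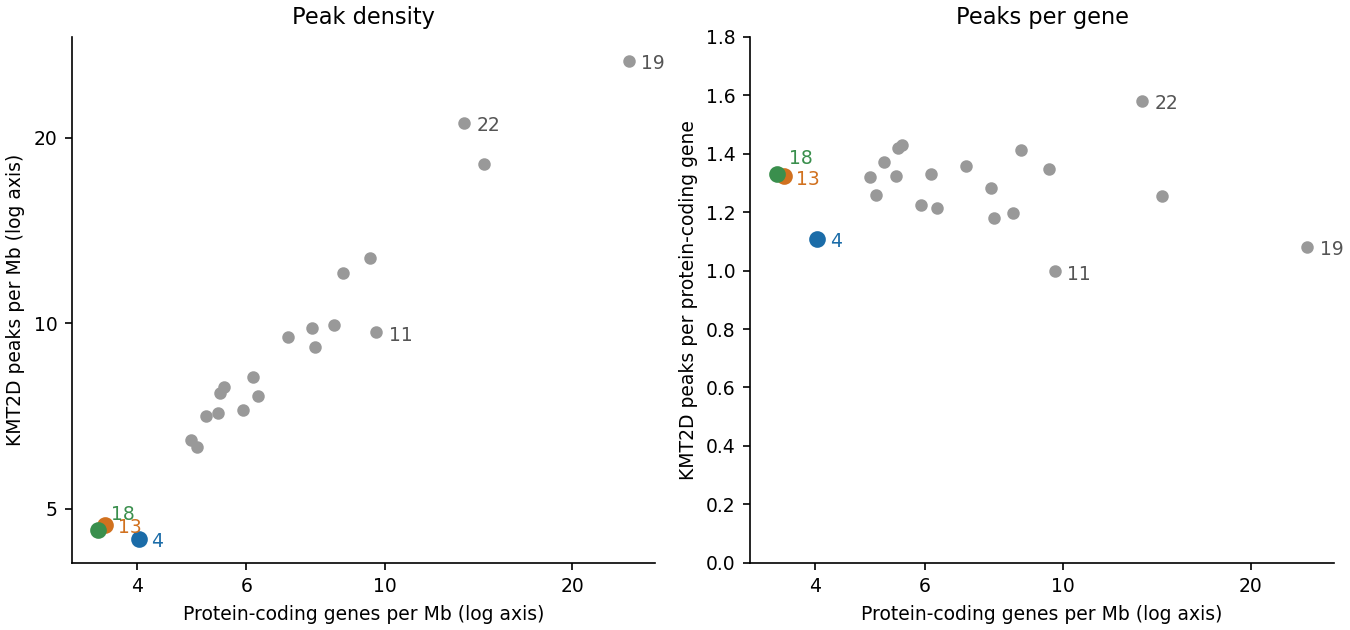
Each point is 1 autosome, with chromosomes 4, 13 and 18 in colour. Left, KMT2D peaks per Mb against protein-coding genes per Mb, both on log axes; right, peaks per protein-coding gene on a linear axis, where chromosomes 13 and 18 lie at 1.32 and 1.33 and chromosome 4 at 1.11.

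Among themselves the 3 chromosomes had similar peak densities, and each ratio had an interval that included 1. The ratio of chromosome 13 to chromosome 4 was 1.05 (exact conditional interval 0.938 to 1.18), that of 18 to 4 was 1.03 (0.911 to 1.17), and that of 18 to 13 was 0.981 (0.851 to 1.13). In bases covered by peaks chromosome 18 was lower. Peaks covered 0.282% of its span, against 0.326% on chromosome 4 and 0.330% on chromosome 13. Restricting the list to its highest-scoring 50% also separated chromosome 18, with 96 peaks left and a density 0.650 times that of chromosome 4 (0.513 to 0.816) and 0.659 times that of chromosome 13 (0.508 to 0.849).

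Peaks lay far apart on all 3. The median gap between neighbouring peaks was 28.5 kb on chromosome 4, 38.1 kb on chromosome 13 and 43.9 kb on chromosome 18, the 3 longest of the 22 autosomes; the others ran from 12.6 to 25.7 kb. On chromosome X, which was not ranked, the median gap was 36.1 kb. Gaps over 1 Mb numbered 41 on chromosome 4, 20 on chromosome 13 and 16 on chromosome 18, and they made up 57.6%, 53.0% and 53.6% of the spans. In this share the 3 were not the extreme, as the other 19 autosomes ran from 0% on chromosome 22 to 62.4% on chromosome 21. The longest gap on chromosome 4 ran for 10.4 Mb, from 58030524 to 68410712, and the next for 8.96 Mb, from 27280901 to 36245559. On chromosome 13 the longest were 5.99 Mb from 53542661 to 59527827, 5.50 Mb from 67805282 to 73301271 and 5.48 Mb from 80055520 to 85536338. On chromosome 18 they were shorter, at 4.74 Mb from 61637900 to 66382063, 4.503 Mb from 24653668 to 29156658 and 4.50006 Mb from 14179369 to 18679431. Gaps can hold sequence to which reads cannot be placed, such as centromeric repeats, and with the depth unknown, an empty stretch is not shown to lack KMT2D.

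The peaks were spread unevenly over the windows of each chromosome. They were counted in windows of 5 Mb by their highest point. Windows were then taken from the fullest down until they held 50% of the peaks. By construction this takes at most about 50% of the windows, even for an even spread. On chromosome 4, 8 of 39 windows (20.5%) held 50% of the peaks, and 2 windows held none, from 30 to 35 Mb and from 60 to 65 Mb. On chromosome 13 this took 4 of 24 windows (16.7%). Its first 4 windows held no peak. They include the short arm of this acrocentric chromosome, which consists largely of repeats, and the first peak started at 20207377. Counted from the first peak, this was 4 of 20 windows. On chromosome 18 it took 5 of 16 windows (31.2%), and each window held at least 2 peaks. The windows were sorted by peak number before they were counted, so no interval is given for these shares. With 16 to 39 windows, the shares were not shown to differ between the chromosomes.

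On chromosome 4 the first window stood apart. The stretch from 0 to 5 Mb held 150 peaks, or 17.6% of those on the chromosome, and its density of 30 peaks per Mb (25.4 to 35.2) was close to the 26.7 of chromosome 19 as a whole. It ranked 16th of the 619 windows of 5 Mb on chromosomes 1 to 22 and X. By Mb, it held 37, 43, 36, 22 and 12 peaks, and the Mb after it held 4. The next fullest windows were 5 to 10 Mb with 50 peaks and, near the other end, 185 to 190 Mb with 49. The rest of the chromosome had 3.78 peaks per Mb (3.51 to 4.07). Without this window, which was chosen after its value was seen, chromosome 13 had 1.25 times (1.10 to 1.40) and chromosome 18 had 1.22 times (1.07 to 1.39) the density of chromosome 4.

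Chromosome 13 was divided into a filled and a sparse stretch. The windows from 20 to 55 Mb held 310 peaks, or 69.4%, at 8.86 peaks per Mb (7.90 to 9.90). The 3 fullest lay side by side, with 68 peaks from 40 to 45 Mb, 58 from 45 to 50 Mb and 57 from 50 to 55 Mb. They followed 55 peaks from 30 to 35 Mb and only 11 from 35 to 40 Mb. From 55 Mb to the last peak there were 137 peaks, or 2.28 per Mb (1.91 to 2.70), and the median window held 6. In that sparse part, the window from 110 to 115 Mb held 33 peaks and that from 95 to 100 Mb held 24. The border at 55 Mb was chosen after the values were seen.

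On chromosome 18 the fullest windows were 0 to 5 Mb and 45 to 50 Mb with 43 peaks each, and 20 to 25 Mb with 42. The fullest 3 held 35.7% of its peaks, against 40.9% on chromosome 13 and 29.2% on chromosome 4, which has more windows. The emptiest were 65 to 70 Mb with 2 peaks and 35 to 40 Mb with 4.

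**Figure D2:**
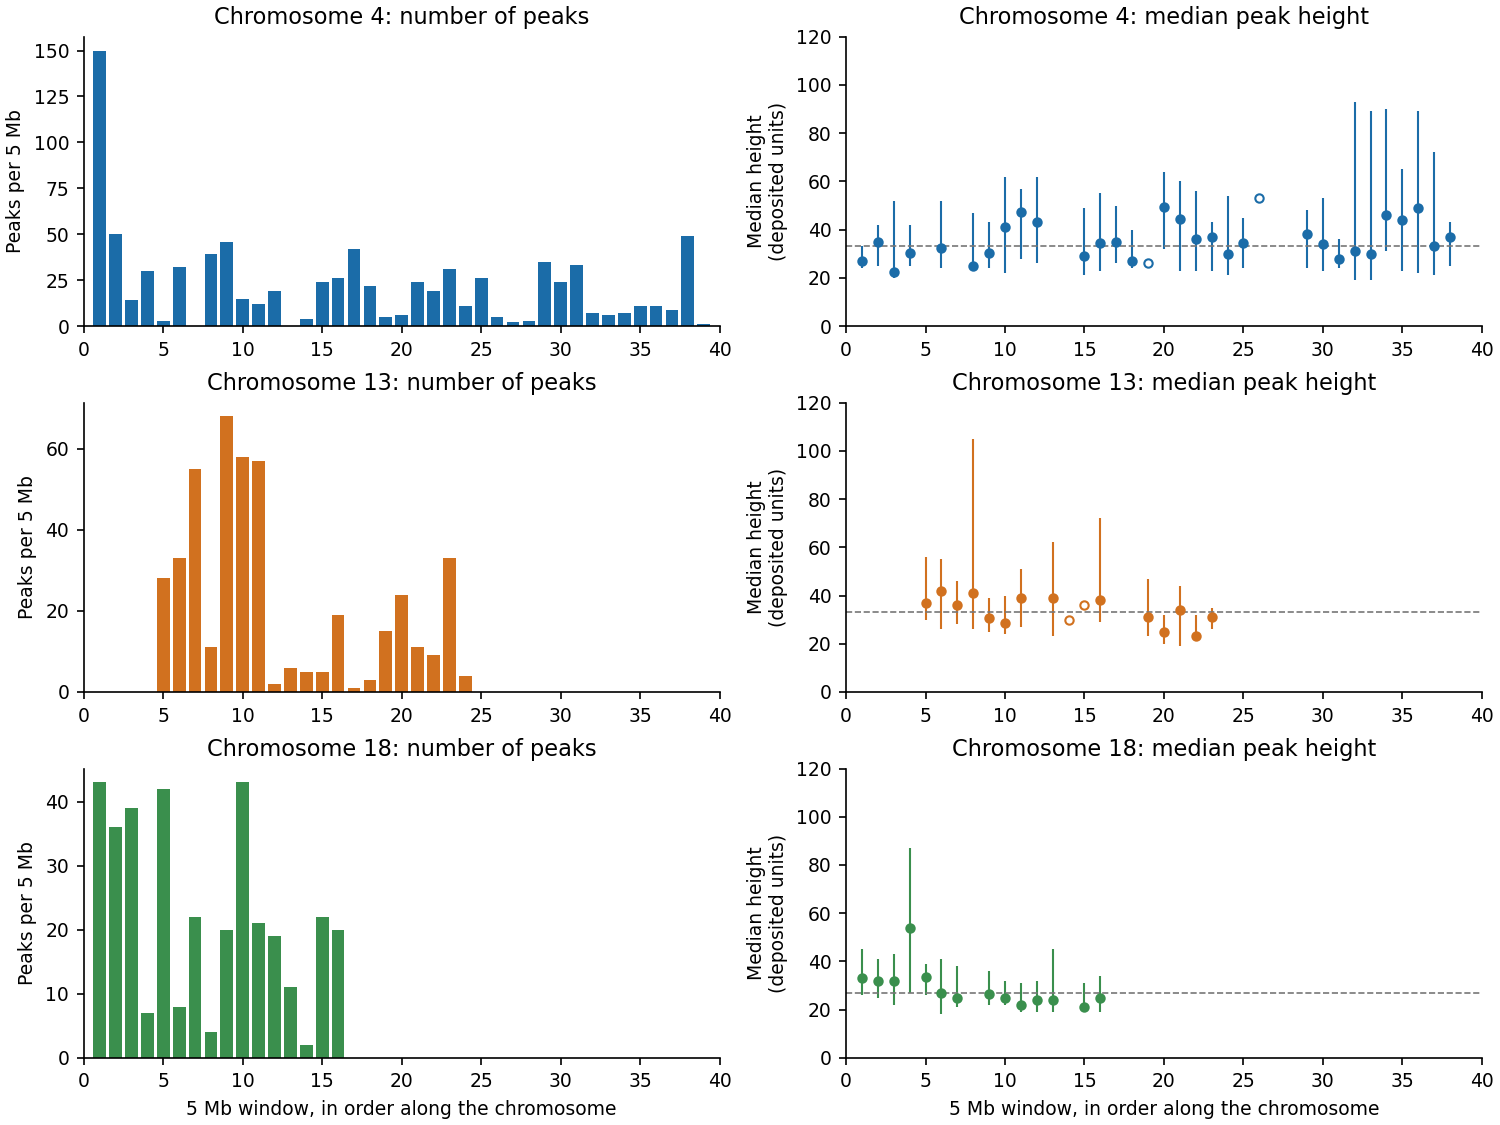
Left, number of KMT2D peaks in each 5 Mb window in order along chromosomes 4, 13 and 18 (the vertical scales differ); right, median peak height of windows with at least 5 peaks, with order-statistic 95% intervals (open circles, 5 peaks, no interval) and the median of the chromosome as a dashed line. The first window of chromosome 4 holds 150 peaks, and the windows of chromosome 18 beyond 25 Mb with at least 5 peaks have medians of 21 to 27.

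Peaks on chromosome 18 were lower than on the other two. Height is a whole number per peak in the units of the deposited list. The median was 27 on chromosome 18 (order-statistic interval 26 to 29, quartiles 21 and 41), the lowest of the 22 autosomes. It was 33 on chromosome 4 (31 to 35, quartiles 22 and 54) and 33 on chromosome 13 (31 to 35, quartiles 23 and 52). Both were below the other 19 autosomes, which had medians of 35 to 51. Chromosome X, which was not ranked, had a median of 26 (24 to 27). A peak drawn from chromosome 18 was the taller in 41.9% of all pairs with peaks of chromosome 4 and in 41.01% of pairs with peaks of chromosome 13, ties counted equally to both sides. Between chromosomes 13 and 4 this share was 50.5%. Heights above 40 were reached by 25.6% of peaks on chromosome 18 (exact binomial interval 21.2 to 30.5%), 37.4% on chromosome 13 (32.9 to 42.03%) and 40.9% on chromosome 4 (37.6 to 44.3%).

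The height at which peaks were listed bears on these medians. The lowest listed height was 15 on chromosomes 4 and 18 and 17 on chromosome 13, against 16 to 26 on the other 19 autosomes. It was 13 on chromosome X. For peaks of height 28 to 32 the median of the deposited significance value, negative like the logarithm of a p-value, was -26.9 on chromosome 18 (43 peaks), -25.8 on chromosome 4 (69 peaks) and -24.3 on chromosome 13 (42 peaks), against -24.6 to -17.2 on the other 19. On chromosomes 4 and 18 this median was more negative than on any of those. On chromosome X it was -29.0 (82 peaks). With only peaks of height 26 or more kept, a limit set with the data in view, chromosome 18 had the lowest median, 39 (37 to 42), and chromosomes 13 and 4, equal over all peaks, had medians of 44 (41 to 46) and 48 (45 to 50). Among the highest-scoring 50% of the list the gap was smaller and the intervals overlapped, at 54 (50 to 58) on chromosome 18, 57 (54 to 61) on chromosome 13 and 57 (55 to 60) on chromosome 4.

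Median width fell in the order 4, 13 and 18, with intervals that overlapped. The median peak was 632 bp wide on chromosome 4 (563 to 669 bp), 547 bp on chromosome 13 (509 to 607 bp) and 507 bp on chromosome 18 (454 to 576 bp). Each of the 3 pairs of intervals overlapped. Very narrow peaks, of up to 200 bp, were about as common on each, at 23.7%, 23.04% and 23.1% of peaks on chromosomes 4, 13 and 18. The other 19 autosomes had 18.5 to 23.5%. The DNA was sheared to 200 to 400 bp, so these peaks were no wider than the shortest fragments aimed for. The classes in between differed more. Peaks of 201 to 800 bp made up 50.7% on chromosome 18 (45.4 to 56.0%), against 39.5% (36.2 to 42.9%) and 41.4% (36.8 to 46.1%) on chromosomes 4 and 13.

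Broad peaks, over 2000 bp, were common on chromosomes 4 and 13 and rare on 18. There were 35 on chromosome 4, or 4.10% (2.87 to 5.66%), and 18 on chromosome 13, or 4.03% (2.40 to 6.29%), the highest shares of the 22 autosomes, the others ranging from 0.446 to 3.51%. Chromosome 18 had 4, or 1.11% (0.304 to 2.83%). One of these 4 was the widest peak of the 3 chromosomes, 5122 bp at 3447641 to 3452763 with a height of 61, and it stood alone. The widest on chromosome 13 measured 3801 bp at 88323259 to 88327060 and reached 71. The widest on chromosome 4 measured 3562 bp at 129730506 to 129734068 and reached 53. All 3 lay far below the tallest peaks of their chromosomes.

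Within width classes the gap in height varied with the class. For peaks of up to 200 bp the median height was 19 on chromosome 4, 21 on chromosome 13 and 20 on chromosome 18. For 201 to 800 bp it was 29 (28 to 31), 29 (28 to 32) and 27 (26 to 29). For 801 to 2000 bp it was 58 (55 to 61), 57 (53 to 62) and 51.5 (47 to 55), the largest gap of these 3 classes, with intervals that met or overlapped. Within each chromosome taller peaks were wider, with Spearman correlations of height and width of 0.89, 0.89 and 0.86 over peaks, which are not replicates. The other 19 autosomes had 0.86 (chromosome 12) to 0.89 (chromosome 6). Height and width describe the same called peak, so they are not independent measures.

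**Figure D3:**
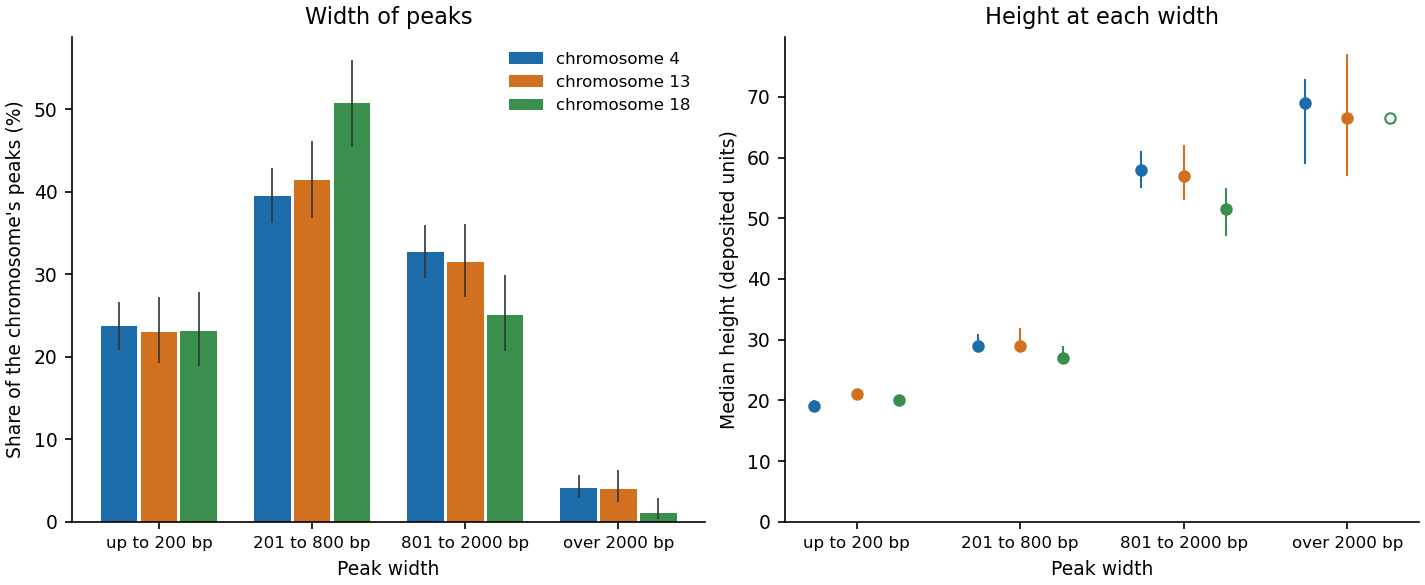
Left, share of the peaks of each chromosome in 4 width classes, with exact binomial 95% intervals as lines; right, median height in each class with order-statistic 95% intervals (the open circle has 4 peaks and no interval). Chromosome 18 has 50.7% of its peaks at 201 to 800 bp and 1.11% over 2000 bp.

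The peaks of chromosome 18 were not low throughout. The windows from 0 to 25 Mb, a stretch chosen after its values were seen, had median heights of 32 to 54 each. The 54 came from only 7 peaks at 15 to 20 Mb (27 to 87), and the next highest median was 33.5. The 9 later windows with at least 5 peaks had medians of 21 to 27. Pooled, the first stretch held 167 peaks of median height 33 (29 to 38), the same median as chromosomes 4 and 13, and the rest held 192 peaks of median height 24 (23 to 27). The first was also wider in the median, at 620 bp (531 to 704 bp) against 423.5 bp (335 to 504 bp). Peaks over 800 bp made up 35.9% of the first stretch (28.7 to 43.7%) and 17.7% of the rest (12.6 to 23.9%), and their median heights were 59.5 (54 to 66) and 40 (32 to 47). All 4 broad peaks and 4 of the 5 tallest lay in the first stretch. The lowest listed height was 15 in both, and the median significance value at height 28 to 32 was -26.3 (14 peaks) and -27.5 (29 peaks). The difference of 9 became 10 after merging of peaks under 500 bp apart (37 and 27) and at a minimum height of 26 (45 and 35). The border was chosen after these heights were seen, so a difference across it was selected for. The intervals do not cover that choice, and the alternatives do not test it. Copy number in this line was not analysed, and its part in the difference was not tested.

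Lone and clustered peaks differed in height, and among the 3 chromosomes least on chromosome 18. Neighbouring peaks were joined into clusters up to a fixed distance, such that the longest gap joined was 12.498 kb and the shortest not joined 12.515 kb. The share of peaks in clusters of 2 or more was 57.8% on chromosome 4 (54.4 to 61.1%), with 57.7% on chromosome 18 (52.4 to 62.8%) followed by 54.1% on chromosome 13 (49.4 to 58.8%), the 3 lowest of the 22 autosomes, the others ranging from 58.8 to 71.4%. Fewer peaks per Mb leave fewer within reach of each other, and this was not adjusted for. Lone peaks on chromosomes 4, 13 and 18 had median heights of 45.5 (41 to 50), 42 (37 to 45) and 32 (28 to 37). Clustered peaks had medians of 27 (25 to 29), 28 (26 to 31) and 26 (23 to 27). The excess of lone over clustered peaks was thus 18.5 on chromosome 4, above the range of 7 to 17 over the other 19 autosomes. It was 14 on chromosome 13 and 6 on chromosome 18, the latter below that range. No interval was computed for the excess, and the ends of the range lay close, at 7 on chromosome 19 and 17 on chromosome 2. On chromosome X, which was not ranked, the excess was 5. Chromosome 18 was thus furthest below chromosomes 4 and 13 among lone peaks. Of its lone peaks, 34.9% were over 800 bp wide (27.3 to 43.01%), against 50.6% on chromosome 4 (45.3 to 55.8%) and 47.8% on chromosome 13 (40.8 to 54.9%), the latter with an overlapping interval. Some neighbours in clusters lay very close to each other. Gaps under 500 bp made up 15.5% of gaps on chromosome 4, 12.3% on chromosome 13 and 13.7% on chromosome 18. Merging such peaks lowered the clustered shares to 42.03, 41.3 and 43.9% in that order. The height excess of lone over clustered peaks was not computed after merging.

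On chromosomes 13 and 18 lone peaks were lower beyond the borders at 55 and 25 Mb, both chosen after values were seen. On chromosome 18 the first stretch had 6.68 peaks per Mb (5.71 to 7.77) and the rest 3.64 (3.14 to 4.19). That rest includes 45 to 50 Mb, which with 43 peaks is 1 of the fullest windows of the chromosome. On chromosome 13 the median height of lone peaks was 46 from 20 to 55 Mb (43 to 53; 138 peaks) and 31 beyond (26 to 36; 67 peaks). On chromosome 18 it was 40.5 before 25 Mb (32 to 48; 74 peaks) and 29 beyond (24 to 33; 78 peaks). On chromosome 4 it was 47 in the first 5 Mb (24 to 68; 35 peaks) and 45 in the rest (41 to 50; 325 peaks). Clustered peaks were also lower beyond the border on chromosome 18, with medians of 30 (26 to 34) before and 22.5 (21 to 25) beyond. On chromosome 13 they were not, with medians of 27 (25 to 31) and 29 (27 to 33).

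**Figure D4:**
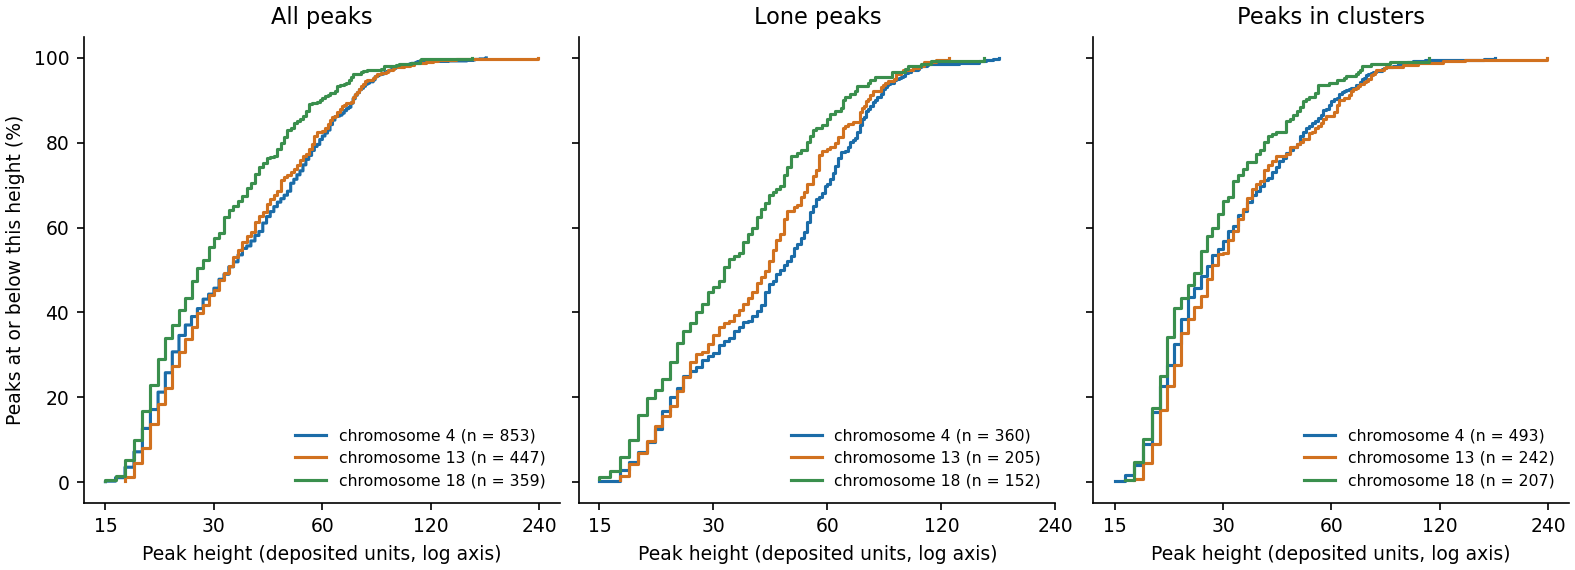
Cumulative share of peaks (percent) against peak height (deposited units, log axis) on chromosomes 4, 13 and 18, for all peaks, lone peaks and peaks in clusters. In each panel the median of chromosome 18 is the lowest, while the curves meet or cross at the ends, and the medians of lone peaks are 45.5, 42 and 32.

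In crowded windows the measured share of clustered peaks was the larger on each of the 3 chromosomes. More peaks in a window leave more within reach of each other, so a larger share there is partly built in. The same holds for the correlation of this share with peak number given below. Peak heights were compared between the same windows. Windows were termed dense where they held more peaks than the median window of the chromosome (15 peaks on chromosome 4, 10 on 13 and 20.5 on 18) and sparse otherwise. The 10 on chromosome 13 counts its 4 empty first windows, and from the first peak the median was 13. Windows with 11 peaks, at 35 to 40 Mb and 100 to 105 Mb, thus counted as dense there. On chromosome 4 the 721 peaks of dense windows had a median height of 32 (29 to 35) and the 132 of sparse windows 40 (33 to 47), intervals that overlap, with median widths of 591 and 743 bp. On this chromosome 61.2% of peaks in dense windows were clustered (57.5 to 64.7%) and 39.4% in sparse ones (31.0 to 48.3%). The shares were 55.3% (50.4 to 60.2%) and 40% (23.9 to 57.9%) on chromosome 13, and 59.3% (53.2 to 65.3%) and 52.7% (42.0 to 63.3%) on chromosome 18, and on both of these the intervals overlapped. On chromosome 13 the median heights were 33.5 in dense (31 to 36; 412 peaks) and 29 in sparse windows (24 to 40; 35 peaks). On chromosome 18 they were 28.5 (26 to 32; 268 peaks) and 27 (24 to 29; 91 peaks), and on both chromosomes the intervals overlapped. At a minimum height of 26, sparse minus dense moved from 8 to 2.5 on chromosome 4, from -4.5 to 1 on chromosome 13 and from -1.5 to -8 on chromosome 18; the last of these moved outside its interval. Over windows with at least 5 peaks, the Spearman correlation of peak number with median height was -0.25 on chromosome 4 (32 windows), 0.0030 on chromosome 13 (16 windows) and 0.17 on chromosome 18 (14 windows). With the clustered share it was 0.41, 0.53 and 0.042 in the same order. For lone peaks alone, median heights in sparse and dense windows were 49.5 (42 to 54) and 43.5 (41 to 49) on chromosome 4. On chromosome 13 they were 30 (22 to 45), from only 21 peaks, and 42 (38 to 46). On chromosome 18 they were 28 (23 to 33) and 36 (30 to 41), and on all 3 the intervals overlapped. These are descriptions, as the windows share 1 library.

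The tallest peak of the 3 chromosomes stood in the sparse part of chromosome 13. It spanned 2695 bp at 91999077 to 92001772 and reached a height of 238, or 7.21 times the chromosome's median. It opened a cluster of 8 peaks over 20.7 kb whose other members reached only 23, 40, 52, 33, 46, 28 and 22. The window from 90 to 95 Mb around it held 15 peaks with a median of 31. The next on chromosome 13 reached 141 at 114102945 to 114104202, 126 at 41019343 to 41020395, 122 at 31191104 to 31192779 and 116 at 39611533 to 39613035. The last of these was isolated, 471 kb from its nearest neighbour.

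On chromosome 4 the tallest 5 were close to each other in height. They reached 171 at 50563 to 52366, 170 at 175749677 to 175750961, 164 at 1403852 to 1404964, 159 at 2964479 to 2965935 and 157 at 6548039 to 6548973. Of these, 3 lay in the crowded first 5 Mb. The second stood alone in a window of 11 peaks, 98.1 kb from its nearest neighbour. On chromosome 18 the tallest peak, 156 at 12702234 to 12703474, was well above the next, at 113 (3261312 to 3262773), 112 (3246823 to 3248317), 112 (9474679 to 9476198) and 106 (34849712 to 34850693). The first 2 of these lower ones were 12.995 kb apart, just too far to be joined. Heights over 100 were reached by 30 of the 1659 peaks, or 1.81%, and by 3.92% of the whole list.

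Large clusters took the largest share of peaks on chromosome 13. Clusters of 5 or more held 17.0% of its peaks (9 clusters), 11.02% on chromosome 4 (15 clusters) and 8.08% on chromosome 18 (5 clusters), against 16.04 to 28.2% on the other 19 autosomes. The largest, on chromosome 13 from 30944347 to 31020514, counted 17 peaks in 76.2 kb and was filled to 13.7% by them. Its heights were uneven: peaks of 104 and 78 closed the cluster at one end, one of 85 stood near the other, and between them heights ran from 18 to 63. The next had 12 peaks at 52367954 to 52407169 with a tallest of 77, and 11 peaks at 46946336 to 46967636 with a tallest of 69.

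Clusters on chromosomes 4 and 18 were smaller. On chromosome 4 the largest, at 25860960 to 25880425, had 11 peaks over 19.5 kb, with heights of only 16 to 42. It included a peak 2442 bp wide that reached 42. A cluster of 8 at 29176 to 58983 held the tallest peak of the chromosome, and another of 8 lay at 40187637 to 40207470 with a tallest of 70. On chromosome 18 the largest clusters had 7 peaks, at 20806740 to 20823263 and at 3584772 to 3603356. The heights of the first were 20, 72, 34, 54, 39, 73 and 26. Of 3 clusters with 5 peaks, the one with the most covered bases, at 13610573 to 13615389, was tightly packed, with peaks over 78.3% of its 4.82 kb. The others lay at 8696009 to 8709131 and, beyond the first 25 Mb, at 77154023 to 77165939.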

How the data were processed

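Peaks came from 1 KMT2D ChIP-seq library of OCI-LY7. The deposited list has 11 columns and no header, so columns were identified from their values. Width equalled end minus start (tolerance 0 bp) and the highest point lay inside each of the 1659 peaks. The submitters' processing notes name CASAVA 1.8.2 and the build hg19. The aligner, the peak caller with its threshold and the role of the input were not given in the sources used here. Peak height was read from the deposited signal column, whose normalization is not stated. The authors also deposited a score, a significance value (a score, negative like log10 of p, at most -15.1 here) and the percent position of the highest point. They served to describe and select peaks within the list. On chromosome 13, 10 peaks lay beyond the last gene of the GRCh38.p14 RefSeq table, and on chromosome 4 it was 1, so only gene numbers and the chromosome of a gene were taken from it.

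Members and measures were chosen with earlier results of these data known. Items named were the 5 tallest peaks, 3 clusters with the most peaks, 3 fullest windows and 3 longest gaps per chromosome; others were chosen after their values were seen. Planned gene lists and sequences were not analysed here. Functions were tested on simulated data. Software was Python 3.11.15 with scipy 1.17.1, pandas 2.3.3, numpy 2.4.6 and, for figures, matplotlib 3.10.9.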

Additional observations from a re-analysis of the deposited data

How the results depend on the processing

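A value is taken as moved if an alternative puts it outside the 95% interval of the value reported. Of 93 alternative values 56 stayed and 37 moved. For shares of windows with 50% of the peaks the interval was binomial over windows. It does not measure their spread, so that these shares stayed carries little weight. No paired analysis was possible because there is 1 ChIP library. In this paragraph values are given for chromosomes 4, 13 and 18 in that order. Raising a threshold, or merging, which keeps the taller height, raises medians and lowers clustered shares by construction. Keeping the highest-scoring 50% gave median heights of 57, 57 and 54, median widths of 1067, 1046 and 983 bp, and densities of chromosome 18 at 0.650 times 4 and 0.659 times 13. A minimum height of 26, added after seeing the data, gave heights of 48, 44 and 39, widths of 900, 826 and 743 bp, clustered shares of 35.6, 36.8 and 32.02%, and a density of 18 at 0.837 times 13. It also put sparse windows of chromosome 18 at 8 below dense ones (difference -8, main -1.5) and those of chromosome 13 at 1 above (main -4.5). Merging peaks under 500 bp apart gave heights of 39, 35 and 29.5, widths of 758, 645 and 615.5 bp, and clustered shares of 42.03, 41.3 and 43.9%. Stitching at 5 kb gave 46.9, 44.5 and 44.8%, and at 25 kb 68.1, 61.7 and 65.5%. In covered bases chromosome 18 had 0.866 times the density of 4. Without the first 5 Mb of chromosome 4, left out after seeing the data, density ratios were 1.25 (13 over 4) and 1.22 (18 over 4), and 53.8% of peaks of 4 were clustered. A common minimum height of 17 moved none of these values. On chromosome 18 the median height beyond 25 Mb lay 9 below that before it, and 10 below under each of 3 alternatives added after seeing the data. The border itself was chosen after the heights were seen, so these alternatives do not test the difference. Chromosome 18 had the lowest median height in each of 5 settings, and the order of widths 18, 13, 4 held in each. With smaller windows of 2.5 Mb the shares of windows with 50% of the peaks fell to 14.3, 12.8 and 25%. With windows shifted by 2.5 Mb they were 20.5, 16.7 and 29.4%.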
